A study of Mus musculus with 24 samples.

Results

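ND2 encodes subunit 2 of NADH dehydrogenase, a core membrane subunit of respiratory complex I. The 370 cytosines described here are all cytosines of both strands at positions 3914 to 4949 of mouse mtDNA (mm10, chrM), which is the ND2 gene. They comprise 288 L-strand and 82 H-strand cytosines, out of 5829 (3890 and 1939) listed for the whole molecule. Within the gene they were chosen by position alone, and every cytosine of the reference sequence in this range was listed. The gene itself was chosen with earlier results of these data known. The RefSeq annotation places ND2 at 3914 to 4951, entirely protein-coding, between the tRNA-Met gene that ends at 3913 and the tRNA-Trp gene that starts at 4950. The L strand carries the sense sequence of ND2, so an L-strand cytosine here is a C of the coding sequence.

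Complex I takes electrons from NADH and passes them to ubiquinone while pumping protons across the inner mitochondrial membrane, and ND2 belongs to the proton-pumping membrane arm. The strands of mtDNA differ in base composition, the H strand being rich in G and the L strand poor in it. Bisulfite turns unmodified cytosine into uracil and leaves 5-methylcytosine as it is, so a modified cytosine and one that has not reacted are both read as unconverted. In PBAT data, a copy of a copied H-strand fragment can also map to the L strand, and its C are then counted as unconverted.

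Unconversion was measured in 24 libraries prepared by post-bisulfite adaptor tagging (PBAT), in which adaptors are joined by random priming after the bisulfite step. The native mtDNA came from mitochondria of the mouse embryonic stem cell (ESC) line E14 (3 preparations) and of brain (2) and liver (2) of C57BL/6J mice, whose age and sex are not given in the sources used here, and was linearised with BglII. Synthetic mtDNA (1 preparation) was made by PCR from a native template, is labelled C57BL/6J and holds no 5mC. Bisulfite acted for 5, 15, 40 and 60 min on synthetic mtDNA and on the first brain, first liver and first and second ESC preparations. The third ESC preparation had durations of 60 and 90 min, and the second preparation of either tissue had 60 min alone. ESCs were grown on feeder cells, which also hold mouse mtDNA. A library held 257028 to 2260572 cytosine calls, 18187 to 129013 of them in ND2, and no pair of the 276 pairs of libraries was identical. Brain preparation 2 at 60 min (18690 calls in ND2) and ESC preparation 3 at 90 min (18187) were the shallowest. A cytosine was used in a library where at least 10 reads covered it, and the rate of a strand or region is the mean over its used cytosines.

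At 60 min the used L-strand cytosines of ND2 fell into 6 runs, and these sequences carry most of what the gene shows. A run was counted where consecutive L-strand cytosines had at least 10 reads in at least 5 of the 7 native libraries. Together the runs held 160 of the 288 L-strand cytosines, and 102 of the 160 (63.7%) had a mean native rate of 90% or more. They are printed from the reference (GRCm38.p6, which is mm10), L strand, 5′ to 3′, with those 102 cytosines in capitals and everything else in lower case.
chrM:3920-3995: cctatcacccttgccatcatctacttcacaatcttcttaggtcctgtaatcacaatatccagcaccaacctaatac
chrM:4025-4064: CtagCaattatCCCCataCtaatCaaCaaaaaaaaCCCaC
chrM:4195-4229: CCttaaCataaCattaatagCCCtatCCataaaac
chrM:4323-4402: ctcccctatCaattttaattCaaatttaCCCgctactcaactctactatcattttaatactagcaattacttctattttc
chrM:4496-4610: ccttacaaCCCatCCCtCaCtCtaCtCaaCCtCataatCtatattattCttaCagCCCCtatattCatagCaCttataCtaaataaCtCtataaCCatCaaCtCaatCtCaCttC
chrM:4772-4928: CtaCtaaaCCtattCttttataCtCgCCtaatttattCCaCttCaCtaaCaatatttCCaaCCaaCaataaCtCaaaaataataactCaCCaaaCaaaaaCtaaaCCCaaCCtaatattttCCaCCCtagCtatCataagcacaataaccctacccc
The first run held no cytosine at 90% or more, the second held 13 of 13, and the fifth 36 of 39. The last run held 39 of 49, and its 10 lower-case cytosines include the 9 nearest its 3′ end.

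After 60 min most reads mapped to the L strand of ND2 were unconverted and those of the H strand were almost entirely converted, in native and synthetic mtDNA alike. The study left reads with 90% or more unconverted cytosines out of its rates, but the deposited values include such reads. That follows from the calls pooled over all L-strand cytosines of ND2, with no coverage minimum. They were up to 94.9% unconverted in native libraries (lowest 89.7%) and 91.1% in synthetic mtDNA. The L-strand rates given here are therefore not comparable with rates computed without reads of 90% or more unconverted cytosines. In the native rates 5mC, unreacted cytosine and copies of the H strand cannot be told apart. In synthetic mtDNA, which holds no 5mC, unreacted cytosine and such copies cannot be told apart. The L-strand mean was 81.0, 74.4 and 79.7% in ESC preparations 1 to 3, 72.9 and 92.2% in the brain pair, 82.0 and 82.8% in the liver pair and 68.7% for synthetic mtDNA. The native mean was 80.7% ± 6.33 (SD, n = 7), and every native library lay above the synthetic one. The H-strand mean was 0.362, 0.352 and 0.460% in the ESC preparations, 0.487 and 0.665% for brain, 0.461 and 0.485% for liver and 0.441% for synthetic mtDNA. The native H-strand mean was 0.467% ± 0.103 (SD, n = 7), and the synthetic value lay within the native range. The strand means were apart in every library, although single L-strand cytosines reached 0%. L minus H was 80.3 percentage points ± 6.25 (SD, n = 7), positive in 7 of 7 preparations (two-sided exact sign-flip permutation test, p = 0.0156, the smallest that 7 preparations allow, and 0.0215 after Benjamini-Hochberg adjustment over the 11 paired tests), and 68.3 in synthetic mtDNA. The L-strand mean rests on 116 cytosines in brain preparation 2, on 159 to 178 in the other native libraries and on 199 in synthetic mtDNA, with a median coverage of 46.5 to 89.0 reads in native libraries and 115 in synthetic mtDNA. All 82 H-strand cytosines were used, with median coverages of 123.5 to 539.5 reads in native libraries and 1002 in synthetic mtDNA. At these coverages 3 unconverted reads correspond to 3.37 to 6.45% of a median native L-strand cytosine and 0.556 to 2.43% of a median native H-strand cytosine. This floor and the tests on reads cover counting error only, since PBAT reads carry no molecular identifiers.

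**Figure D1:**
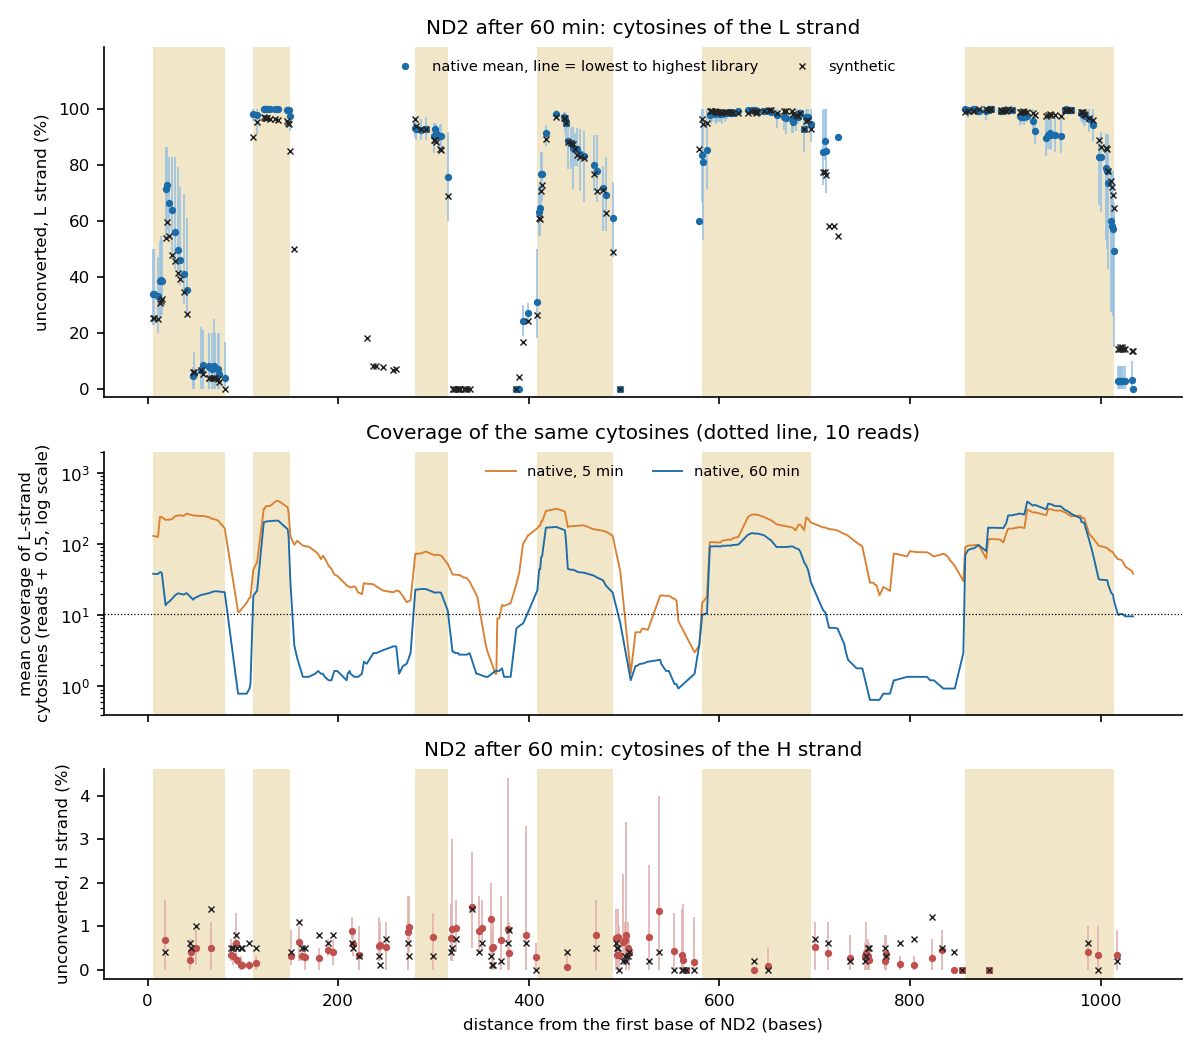
Unconversion rate of each ND2 cytosine of the L strand (top) and H strand (bottom) after 60 min, and mean native coverage of the L-strand cytosines after 5 and 60 min (middle, log scale), against distance from the first base of ND2. Points are means over the native libraries with 10 or more reads, lines their lowest to highest value, crosses synthetic mtDNA and shaded bands the 6 covered runs. L-strand rates form plateaus near 100% in most runs but not in the first, synthetic crosses lie close to the native points over most of the runs, and no H-strand mean exceeds 1.44%.

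Along the L strand, unconversion followed the runs. The run at 4025 to 4064 had the highest native mean, 99.4% ± 0.617 (SD, n = 7), with 94.6% in synthetic mtDNA. The runs at 4496 to 4610 and 4772 to 4928 had native means of 97.1% ± 1.76 and 92.5% ± 4.17 (SD, n = 7 each), with 98.0 and 95% in synthetic mtDNA. The runs at 4195 to 4229 and 4323 to 4402 were at 90.5% ± 3.34 (n = 6, since no cytosine of it had 10 reads in brain preparation 2) and 80.0% ± 3.99 (n = 7). The run at 3920 to 3995, next to the tRNA-Met gene, stood apart: its native mean was 30.4% ± 7.28 (SD, n = 7) and its synthetic value 23.1%, and 22 of its 27 cytosines had native means below 50%. It had been 82.8% ± 3.19 unconverted after 5 min (SD, n = 4), and 83.0% in synthetic mtDNA. A steep drop also lay at the other end of the gene. The cytosine at 4906 had a native mean of 94.3%, that at 4928 of 49.3% and that at 4932 of 2.77%, with 96.0, 64.4 and 14.3% in synthetic mtDNA. The last value rests on the 3 native libraries with 10 or more reads there.

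In 100-bp bins counted from the first base of ND2, the highest L-strand mean was in the bin at 4714 to 4813 and the lowest in that at 3914 to 4013. The former was at 99.7% ± 0.226 in native mtDNA (SD, n = 7) and 99.5% in synthetic mtDNA, over 12 of its 24 cytosines. The latter was at 30.4% ± 7.28 and 23.1%, over 6 to 27 of its 29 cytosines. Both are shown on the L strand, 5′ to 3′, with the cytosines of 90% or more in capitals.
chrM:4714-4813: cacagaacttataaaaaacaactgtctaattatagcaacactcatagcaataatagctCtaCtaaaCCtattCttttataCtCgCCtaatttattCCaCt
chrM:3914-4013: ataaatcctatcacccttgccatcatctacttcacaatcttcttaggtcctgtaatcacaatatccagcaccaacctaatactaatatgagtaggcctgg
All 12 used cytosines of the upper sequence are in capitals, and the 12 in lower case had fewer than 10 reads in every native library. The lower sequence has 11 G in 100 bases and the upper one 6.

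As a group, the stretches between the runs were read after 5 min and nearly lost from the data afterwards, with exceptions among single stretches and runs. These 6 stretches held all other L-strand cytosines and were, by the way the runs were defined, thinly covered at 60 min. After 5 min their native mean coverage was 36.5 to 70.6 reads, against 138 to 268 reads in the runs, and they were 96.8% ± 0.767 unconverted (SD, n = 4), as the runs were at 94.1% ± 0.937. Set against the H-strand coverage of ND2 in the same library, which allows for depth, coverage of the thin stretches was 5.11 to 7.503% after 5 min in the 4 native preparations, 0.759 to 1.07% after 15 min and 0.387 to 0.663% after 40 min, times that did not enter the definition. Coverage of the runs was 19.7 to 28.4% of the H strand after 5 min, 16.8 to 20.4% after 15 min and 17.2 to 26.4% after 40 min. Synthetic mtDNA gave 8.58, 0.864 and 0.677% in the thin stretches and 42.7, 25.2 and 26.5% in the runs. Single stretches differed from their group in native mean coverage. The run at 3920 to 3995 fell from 222 reads after 5 min to 31.7 after 15 min and 26.8 after 40 min. The other runs had 31.0 to 209 reads after 40 min. The thin stretch at 4932 to 4948 went from 53.9 to 23.6 and 13.8 reads. Those at 4009 to 4022 and 4410 to 4493 had 14 and 12 reads already after 5 min. The remaining thin stretches had 30.1 to 81.5 reads after 5 min and 1.83 to 2.85 after 40 min. No test was made, since the same preparations at 60 min defined the stretches. The base composition of the groups differed, a feature that the definition did not use: G made up 2.78% of the runs and 11.6% of the thin stretches. G content was 1.74 to 2.86% in 5 runs and 6.58% in the run at 3920 to 3995, which was the least unconverted. It was 9.46 to 21.4% in 5 thin stretches, and the sixth, 17 bases at 4932 to 4948, held no G. Loss of reads and conversion that prevents mapping cannot be told apart in these tables.

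**Figure D2:**
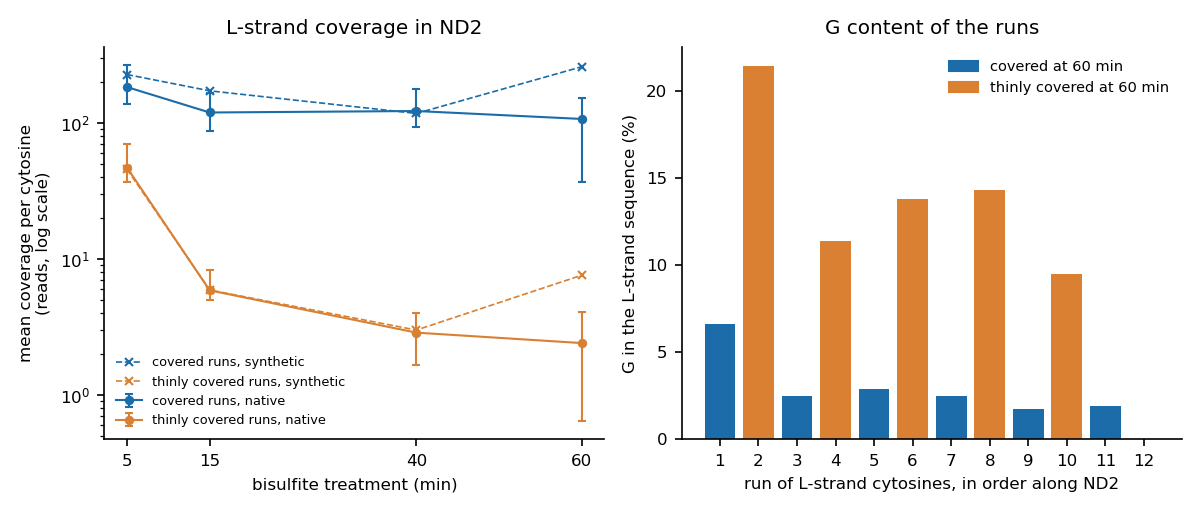
Left, mean L-strand coverage per cytosine (reads, log scale) against bisulfite duration in the 6 covered runs and the 6 thinly covered stretches of ND2; points are means over 4 native libraries (7 at 60 min), bars the lowest and highest library and dashed lines synthetic mtDNA. The native values at 60 min defined the groups. Right, G content of the 12 stretches in order along the gene; thin stretches hold 9.46 to 21.4% G except the last, which holds none, and covered runs 1.74 to 6.58%.

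The same relation appeared cytosine by cytosine, with exceptions. For each of the 179 L-strand cytosines with 10 reads in at least 1 native library at 60 min, the G within 50 bases on either side were counted. The 69 cytosines with 1 to 5 G had a mean native rate of 97.3%, and 67 of them were at 90% or more. The mean was 80.9% for the 39 cytosines with 6 to 8 G, 59.2% for the 40 with 9 to 11 G and 41.1% for the 31 with 12 or 13 G, where the median was 8.12%. In these classes 14, 14 and 8 cytosines were at 90% or more. The run at 4025 to 4064, with the highest native mean of the runs, had 9 G around 4064 and 13 around 4029. The run at 3920 to 3995, with the lowest, had 6 around 3946 and 13 around 3978. Pearson's r was -0.64 and Spearman's rho -0.56 over the 179 cytosines. These are descriptions, since neighbouring cytosines share reads and overlapping windows. The number of C in the same window had r = -0.09 on the L strand. For the 82 H-strand cytosines the bases of the window were counted on the H strand, where each C pairs with a G of the L strand. Their rates had r = 0.57 with this count of H-strand C and r = -0.10 with that of H-strand G, at rates of at most 1.44%.

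**Figure D3:**
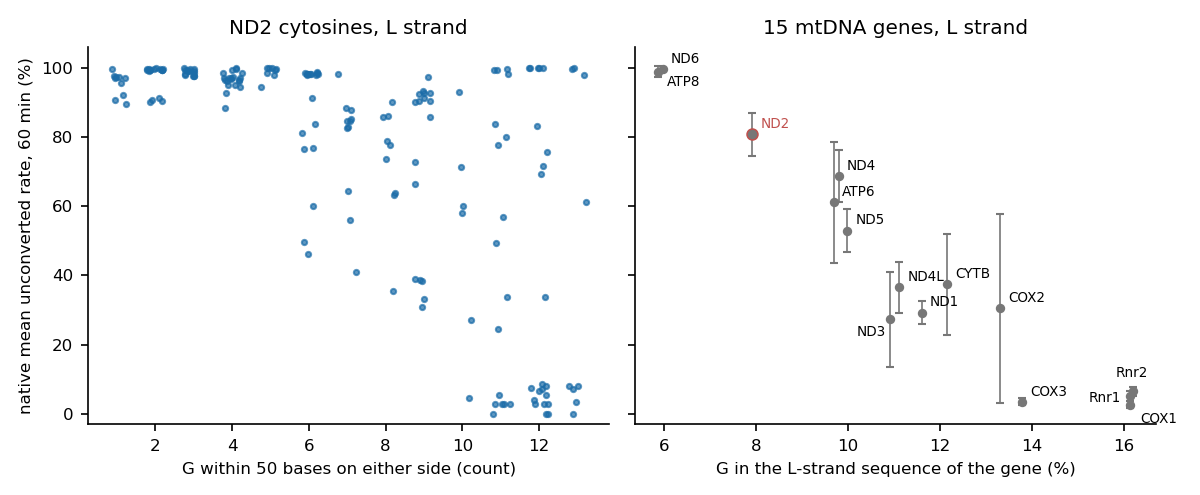
Left, native mean unconversion rate after 60 min of 179 L-strand cytosines of ND2 against the number of G within 50 bases on either side (points shifted sideways at random to separate them). Right, L-strand mean rate after 60 min of 15 mtDNA genes (mean and SD of 7 native preparations) against the G content of their L-strand sequence; ND2, in red, has rank 3 from the top by mean and rank 3 from the bottom by G content.

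The L-strand unconversion rate of ND2 was far above that of the rest of mtDNA. ND2 minus the rest was 52.1 points ± 4.22 (SD, n = 7; 80.7 against 28.6%), positive in 7 of 7 preparations, and 42.4 in synthetic mtDNA (68.7 against 26.3%). ND1, another core subunit of complex I encoded upstream, was at 29.2% ± 3.34, and ND2 minus ND1 was 51.5 points ± 8.71 (SD, n = 7), with 41.9 in synthetic mtDNA. This difference was 78.8 to 80.0 points on the cytosines covered in all 8 libraries of 60 min, with a coverage minimum of 30 and with calls pooled over sites. ND5, a large proton-pumping subunit, was at 52.9% ± 6.29, and ND2 minus ND5 was 27.8 points ± 5.10 (SD, n = 7), with 23.6 in synthetic mtDNA. Each of these 3 differences had p = 0.0156 (exact sign-flip permutation test, two-sided) and an adjusted p of 0.0215 (n = 7 preparations). The study had already named ND2 and ND5 among the genes where nearly unconverted reads were frequent in these libraries. These p-values are therefore not those of a gene chosen beforehand. H-strand cytosines of ND2 were lower than the rest by a small amount, -0.124 points ± 0.0736 (SD, n = 7; 0.467 against 0.592%), lower in 7 of 7 preparations (exact sign-flip permutation test, adjusted p = 0.0215), and -0.174 in synthetic mtDNA. That call was lost when calls were pooled over sites (-0.0297 points, exact permutation, adjusted p = 0.206). For the same strand ND2 minus ND1 was 0.00371 points ± 0.0799 (SD, n = 7, exact permutation p = 0.891) and ND2 minus ND5 0.0288 ± 0.0933 (SD, n = 7, exact permutation p = 0.5).

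Among 13 protein genes and 2 rRNA genes ND2 ranked 3 of 15 by L-strand mean. Above it were ND6 (99.5%), the one complex I subunit whose coding sequence lies on the other strand, and ATP8 (98.9%), a small subunit of ATP synthase. The genes most like it, by the mean absolute difference over the 8 libraries of 60 min, were ND4 (68.7% ± 7.52 in native mtDNA, 12.3 points away), a further membrane-arm subunit, and ATP6 (61.2% ± 17.5, 19.1 points away), the proton channel subunit of ATP synthase. ND4 and ATP6 differed by less than the SD of ATP6, and ATP6 lay above ND2 in brain preparation 2 (97.2 against 92.2%). A native library used 64 to 151 of the 356 L-strand cytosines of ND4 and 22 to 71 of the 179 of ATP6. For ATP8 it used 14 to 33 of 53. The lowest were COX1 (2.62%), the catalytic subunit of cytochrome c oxidase, and COX3 (3.42%). Across the 15 genes the L-strand mean had r = -0.96 and rho = -0.91 with G content, which was 7.92% in ND2 and 12.4% in mtDNA as a whole. All genes share the same libraries, so this is a description. By H-strand mean ND2 ranked 7 of 15.

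**Figure D4:**
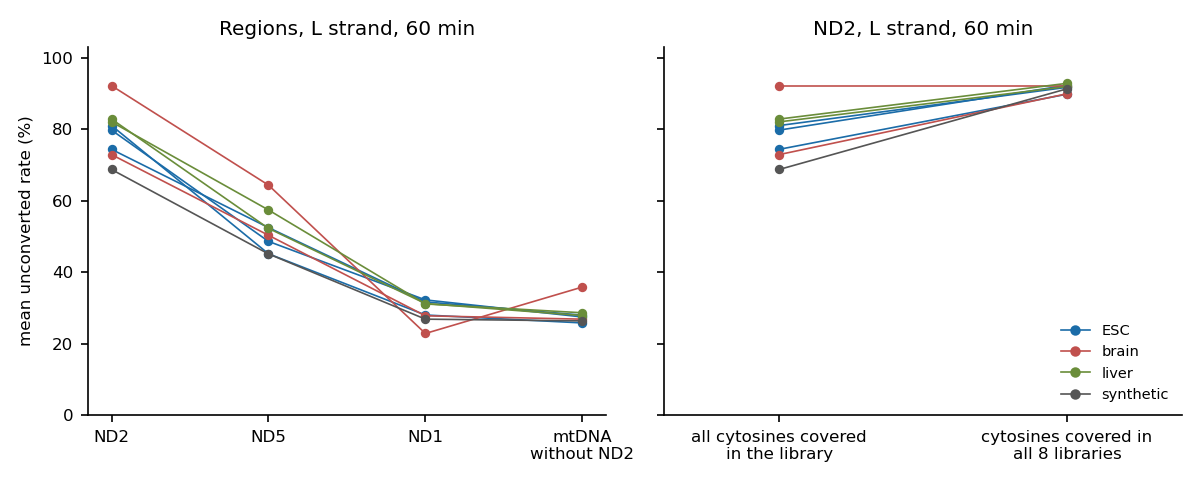
Left, L-strand mean unconversion rate (%) after 60 min in ND2, ND5, ND1 and mtDNA without ND2; each line is 1 of 8 libraries, coloured by source. Right, the ND2 mean of the same libraries over all cytosines covered in that library and over the 116 covered in all 8; on the latter the 8 libraries lie between 89.8 and 92.8%.

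The L-strand difference between native and synthetic ND2 depended on which cytosines were covered. Native minus synthetic was 12 points, with 7 of 7 native preparations higher, but the exact permutation test of which of the 8 libraries is the synthetic one gave p = 0.250 (smallest possible 0.125) and an adjusted p of 0.600 over 6 tests. With calls pooled over sites the difference was 1.93 points, and on the 116 L-strand cytosines with 10 reads in all 8 libraries it was 0.226 points. Native means there were 91.7, 89.8 and 92.3% for ESC, 89.9 and 92.2% for brain and 91.9 and 92.8% for liver, and the synthetic mean of 91.3% lay inside the native range. On these 116, 90 cytosines were at 90% or more in native mtDNA, 90 in synthetic mtDNA and 89 in both, none was below 10%, and r between the native and synthetic rates was 0.98. The synthetic library covered 20 L-strand cytosines that no native library covered, and their synthetic mean was 11.1%. Another 89 had fewer than 10 reads in all 8 libraries. Native minus synthetic H-strand means differed by 0.0260 points (n = 7 and 1, exact permutation p = 0.5).

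No difference between ESC and tissue ND2 passed the exact permutation test on either strand. On the L strand ESC minus tissue was -4.11 points (78.4% ± 3.53, n = 3, against 82.5% ± 7.88, n = 4; exact permutation p = 0.400, two-sided, adjusted p = 0.600), and -0.444 on the shared cytosines. Leaving out 1 preparation at a time moved it between -7.31 (without brain preparation 1) and -0.880 points (without brain preparation 2). For H-strand cytosines it was -0.133 points (0.391% ± 0.0593, n = 3, against 0.524% ± 0.0942, n = 4; exact permutation p = 0.0571, adjusted p = 0.343), where the highest ESC value (0.460%) lay just below the lowest tissue value (0.461%). Without brain preparation 2 it was -0.0862 points. Brain minus liver was 0.0911 points for L-strand and 0.102 for H-strand cytosines (n = 2 each, exact permutation p = 1 and 0.333, the latter the smallest that this design allows). Leaving out brain preparation 2 turned the L-strand difference to -9.55 points and left 0.0134 points for the H strand.

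No single cytosine of ND2 passed the test across preparations. The limma fit on the log2 ratio of unconverted to converted reads (0.5 added to each) tested 2902 cytosines with 10 reads in all 8 libraries, 198 of them in ND2. It called 0 for native minus synthetic, ESC minus tissue and brain minus liver (background over all 2902 cytosines, 0%). At an unadjusted p under 0.05 it gave 18, 9 and 5 ND2 cytosines, against backgrounds of 8.48, 4.07 and 4.2% of all cytosines tested. Fisher's exact test with the preparations' reads added up, which leaves out the variation between them, called 18 ND2 cytosines for native minus synthetic, all on the L strand and 9.09% of the 198 (background 1.21% of 2902, and 0.629% outside ND2). For ESC minus tissue it called 0 and for brain minus liver 1 (background 0.827%), at position 4861. Its counts at an unadjusted p under 0.05 were 40, 7 and 19 of the 198 for the 3 contrasts in the same order as above, against backgrounds of 7.13, 3.89 and 5.2%. The 18 lie in 2 clusters. In 10 of them, between 4036 and 4062, each of the 7 native libraries was higher than synthetic mtDNA. The other 8, between 4843 and 4872, had native means of 89.4 to 95.6% against 97.3 to 98.5% in synthetic mtDNA, with 6 or 7 of 7 native libraries lower. Cytosines of a cluster share reads, and with 1 synthetic library a difference of that library from other synthetic mtDNA cannot be told apart from a difference between native and synthetic mtDNA.

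The 3 L-strand cytosines nearest to a call for native minus synthetic were at 4051, 4043 and 4037, all in the run at 4025 to 4064. That at 4051 read 100% in ESC preparations 1, 2 and 3, in brain preparation 2 and in liver preparation 1, 99.5% in brain preparation 1 and 99.6% in liver preparation 2, and 95.8% in synthetic mtDNA. Its difference was 3.49 ± 1.10 (SE) on the log2 scale (limma, adjusted p = 0.577). The cytosines at 4043 and 4037 had differences of 3.18 and 3.12 with the same adjusted p. The 3 nearest for ESC minus tissue were H-strand 4688 (-2.19) and 4079 (-2.04) and L-strand 4043 (1.95), and for brain minus liver H-strand 4292 (3.65), 4651 (-2.65) and 4285 (2.57), all with adjusted p over 0.99 by limma. H-strand 4292 was at 4.4% in brain preparation 2 on 45 reads, and at 0.9% in brain preparation 1 and 0% in both liver preparations, so each brain library held 2 unconverted reads. Without brain preparation 2 the difference was 2.46.

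The highest L-strand cytosines, by the native mean with ties in order of position, were at 4772, 4780, 4781, 4798 and 4799, in the last run. Each was at 100% in all 7 native libraries and at 98.9 to 100% in synthetic mtDNA. The highest on the H strand were at 4254, 4451, 4274, 4188 and 4238, with native means of 1.44, 1.34, 1.16, 0.971 and 0.957% and synthetic values of 1.4, 0.4, 0.3, 0.3 and 0.7%. Native coverage was only 25 to 110 reads at 4451 and 63 to 239 at 4188, so these rates rest on few unconverted reads. The cytosine at 4254 read 0.5, 1 and 0.6% for ESC, 2.2 and 1.4% for brain and 2.7 and 1.7% for liver. It is printed 5′ to 3′ on the H strand with that cytosine in capitals.
chrM:4244-4264 (minus strand): ttctggtaatCagaagtggaa
The synthetic value lay inside the native range, and the native values span more than 5-fold at coverages of 142 to 641 reads.

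CG dinucleotides, the usual context of 5mC in nuclear DNA, were few in ND2. The range holds 8, and after 60 min only 4 of their L-strand cytosines were covered in any library. They are shown with 10 bases on either side and the CG in capitals.
chrM:4054-4075: aaaaaacccaCGatcaactgaa
chrM:4227-4248: aactaggcctCGccccattcca
chrM:4343-4364: caaatttaccCGctactcaact
chrM:4786-4807: cttttatactCGcctaatttat
The L-strand cytosine at 4064 had a native mean of 97.5% in 6 libraries and 85.0% in synthetic mtDNA, that at 4353 95% and 94.9%, and that at 4796 99.7% and 99.5%. That at 4237 was covered in synthetic mtDNA only, at 0%, on 13 reads. The CG mean was 97.2% ± 1.82 (SD, n = 7) in native mtDNA, against 80.4% ± 6.46 for all other cytosines (CH). The difference was 16.8 points ± 7.96, positive in 7 of 7 preparations (exact sign-flip permutation test, adjusted p = 0.0215). It rests on only 2 or 3 CG cytosines a library. In synthetic mtDNA it was 1.15 points, with a CG mean of 69.85% over 4 cytosines that include the 0% at 4237. The synthetic rates at 4064, 4353 and 4796 were each above the synthetic CH mean of 68.7%. The native difference was 4.45 to 6.14 points with shared cytosines, pooled calls or a coverage minimum of 30. It lost its call at a minimum of 20 (10.49 points, exact permutation, adjusted p = 0.0645). All 8 H-strand CG cytosines were used, and CG minus CH was -0.0272 points ± 0.148 (SD, n = 7, exact permutation p = 0.625). By codon position, native L-strand means were 82.2, 80.3 and 79.9% for positions 1, 2 and 3, with SDs between libraries of 6.24 to 6.65 (n = 7). Differences between positions within a library were not tested.

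The later part of the gene had a higher unconversion rate than the first on the L strand. Cytosines at 4432 to 4949 had a native mean of 90.9% ± 6.88 and those at 3914 to 4431 of 66.7% ± 5.66, a difference of 24.1 points ± 6.13 (SD, n = 7, positive in 7 of 7, exact sign-flip permutation test, adjusted p = 0.0215) and 39.3 in synthetic mtDNA. It was 15.4 points with a coverage minimum of 30 and 11.2 with calls pooled over sites, called in both. H-strand cytosines had the opposite order, -0.263 points ± 0.0980 (0.294 against 0.557%; SD, n = 7, exact sign-flip permutation test, adjusted p = 0.0215), lower in 7 of 7, -0.193 in synthetic mtDNA and -0.172 with calls pooled over sites.

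Unconversion rates of the strands followed different courses with the duration of treatment. After 5 min the L-strand mean was 94.3 and 95.8% in ESC preparations 1 and 2, 94.8% in brain preparation 1, 95.9% in liver preparation 1 and 95.8% in synthetic mtDNA. After 15 min it was 82.8, 76.8, 74.7 and 78.4% in the same order and 83.5% in synthetic mtDNA, and after 40 min 76.6, 74.8, 78.4 and 75.1% and 79.3%. The step from 5 to 15 min was -17.0 points ± 3.83 (SD, n = 4, lower in 4 of 4, exact sign-flip permutation p = 0.125, the smallest possible, adjusted p = 0.250), and -12.3 in synthetic mtDNA. It was -8.88 points with a coverage minimum of 30 and -4.05 with calls pooled over sites. The later steps were -1.97 ± 4.16 and 1.35 ± 5.50 points (SD, n = 4, exact permutation p = 0.5 and 0.75). Over the 157 to 168 cytosines that a preparation covered at all 4 durations, the mean of ESC preparation 1 went from 93.2 to 84.0, 82.7 and 80.8% and that of ESC preparation 2 from 94.4 to 76.6, 75.0 and 74.4%. Brain preparation 1 went from 92.9 to 77.8, 78.4 and 75.5%, liver preparation 1 from 95.2 to 81.5, 79.9 and 82.3%, and synthetic mtDNA from 94.9 to 85.9, 80.3 and 80.1%. The fall by 15 min was common to the 5 preparations, and the later values of brain and liver did not fall steadily. Of the cytosines at 90% or more after 5 min, 104 of 118 in ESC preparation 1, 87 of 131 in ESC preparation 2, 93 of 118 in brain, 107 of 129 in liver and 99 of 127 in synthetic mtDNA were still at 90% or more after 60 min. Cytosines that fell from there to below 10% numbered 7 in ESC preparation 2 and 0 in the others.

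The H strand was partly converted after 5 min and almost wholly after 40 min. After 5 min it was at 31.2 and 32.8% in ESC preparations 1 and 2, 31.1% in brain preparation 1, 31.2% in liver preparation 1 and 27.5% for synthetic mtDNA. After 15 min it was at 10.7% in ESC preparation 1 and at 3.59, 3.74 and 3.33% in the others, with 3.28% in synthetic mtDNA. The high value of ESC preparation 1 was shared by the rest of its H strand, at 10.54% against 3.42 to 3.67% in the other native libraries. After 40 min all 4 were at 0.334 to 0.788% and synthetic mtDNA at 0.422%. The steps were -26.3 points ± 3.92, -4.81 ± 3.62 and -0.101 ± 0.139 (SD, n = 4, exact sign-flip permutation p = 0.125, 0.125 and 0.250), and -24.2, -2.86 and 0.0195 in synthetic mtDNA. Without ESC preparation 1 the step from 15 to 40 min was -3.01 points, and without brain preparation 1 that from 40 to 60 min was -0.0346. With 90 min, ESC preparation 3 covered 111 L-strand cytosines, which were at 92.2% after 60 min and 93.4% after 90 min. Its H strand was at 0.465% after 60 min and 1.402% after 90 min over 81 shared cytosines, and at 1.39% over the rest of the H strand. These libraries hold 72842 and 18187 calls in ND2, and the single pair allows no test.

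**Figure D5:**
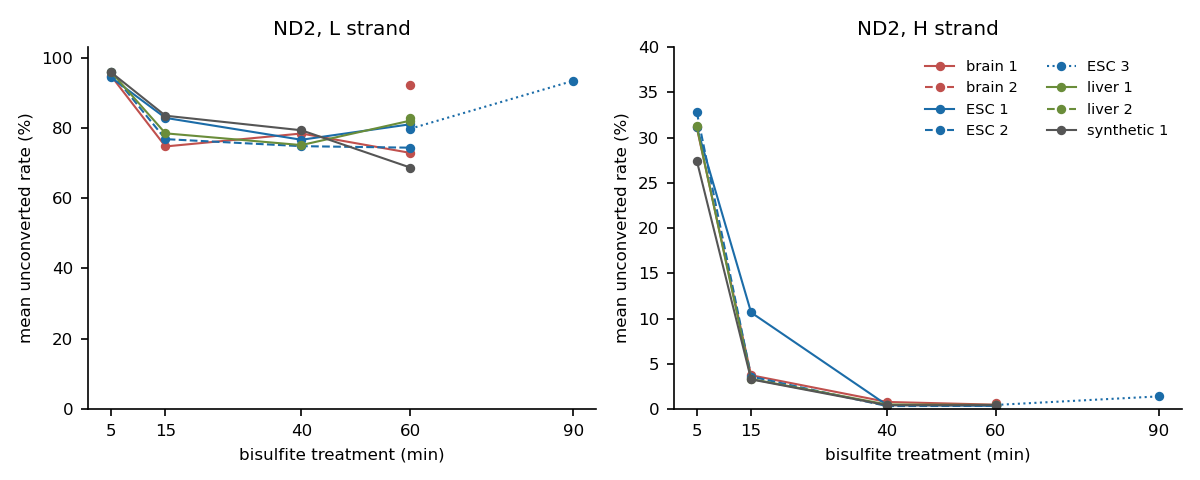
Mean unconversion rate of ND2 (%) on the L strand (left) and H strand (right) against the duration of bisulfite treatment, 1 line per preparation and 1 point per library. L-strand means lie between 68.7 and 95.9% at all durations, and H-strand means fall from 27.5 to 32.8% after 5 min to at most 0.788% after 40 min.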

How the data were processed

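Values came from 24 PBAT libraries of mouse mtDNA. Per the labels and the study's methods, the authors trimmed the first reads with Trim Galore and mapped them to mtDNA (mm10) with Bismark; the versions used for these libraries are not given in the sources used here. The authors deposited, for every listed cytosine of each strand, the percent of covering reads that were unconverted, with 1 decimal, and the coverage as a count of reads, neither corrected nor normalised. For its rates the study dropped reads on which 90% or more of the cytosines were unconverted. Single reads were not analysed here, and the deposited values include such reads.

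Unconverted reads were taken as percent times coverage, rounded. Cytosines with at least 10 reads were used, and the value of a region is the mean over its cytosines. Preparations, 1 library each per duration, were the replicates. Means were compared by two-sided exact permutation or sign-flip tests over preparations, with Benjamini-Hochberg adjustment over 6, 11 and 6 tests for groups, paired regions and durations. Single cytosines were fitted with limma 3.58.1 (R 4.3.3) on all 2902 cytosines with 10 reads in the 8 libraries of 60 min (threshold 0.05 on the adjusted p), checked on simulated data. Fisher's exact test on summed reads, coverage minimums of 20 and 30, pooled calls, shared cytosines, limma with a trend, a replicate block and leaving out each preparation were alternatives. Named cytosines were, per strand, the 5 with the highest native mean and, per contrast, the 5 largest differences among calls or else the 3 smallest p; the 2 genes closest in L-strand mean, the highest and lowest bins and the CG cytosines were also named. The covered runs were defined after the values were seen. The gene, the tests and these lists were chosen with earlier results of these data known. Sequences are from RefSeq (GRCm38.p6). Depth per library was 257028 to 2260572 calls.

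Same-numbered preparations of different sources deviated together weakly or not at all (6 pairs, r of -0.137 to 0.236 over ND2 and -0.0695 to 0.0755 over all cytosines). The numbers were not taken to pair ESC, brain and liver. Brain and liver have 2 preparations each, so their pairs numbered 1 and 2 give the same r by construction (0.236 over ND2). Libraries of one preparation at different durations were paired.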

Additional observations from a re-analysis of the deposited data

Results flagged for a closer look

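In 35 sets of 4 or 7 native libraries examined with Dixon's criterion, 7 single values stood apart from the rest of their set. Chance gives about 1 in 20 for normally distributed values in sets chosen without regard to them. The single-cytosine sets, which include H-strand 4292 and 4688, were chosen for the smallest limma p in these same libraries. That rate does not apply to them. Brain preparation 2 at 60 min accounted for 4 of them. It had 116 L-strand cytosines of ND2 covered (159 to 178 in the other native libraries), an H-strand mean of 0.665% (0.352 to 0.487% in the others), an ND2 minus ND1 difference of 69.4 points on the L strand (42.7 to 53.0 in the others) and 4.4% at H-strand position 4292 (0 to 0.9% in the others). Liver preparation 1 had 0.8% at H-strand position 4688 (0 to 0.2% in the others). After 5 min the H-strand mean of ESC preparation 2 was 32.8%, against 31.1 to 31.2% in the other 3 native libraries. After 15 min that of ESC preparation 1 was 10.7%, against 3.33 to 3.74%. Depth goes along with the values of brain preparation 2, which had 18690 calls in ND2 where the other native libraries of 60 min had 57724 to 77834, and its part in them was not tested.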

How the results depend on the processing

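Of 404 values recomputed for 37 results, 378 kept their direction and their side of the threshold (for a level or a count, stayed near the first value). For some of them that side was fixed in advance. The exact permutation tests of native minus synthetic means and of paired duration steps could not go below p = 0.125. Those of brain minus liver means could not go below 0.333. The L-strand level of native ND2 rose from 80.7 to 91.8% with a coverage minimum of 30, 93.5% with calls pooled over sites and 91.5% on shared cytosines. CG minus CH on the L strand lost its call at a coverage minimum of 20 (10.49 points). Pooling took the call from ND2 minus the rest of mtDNA on the H strand (-0.0297 points) and turned ND2 minus ND1 on the H strand to -0.150 points (exact permutation, adjusted p = 0.0246). It also turned brain minus liver to -0.354 for L-strand and -0.00734 for H-strand cytosines, native minus synthetic of the H strand to -0.0811, and the steps from 15 to 40 and 40 to 60 min on the L strand to 2.10 and -0.0941. The 15 to 40 min step was 0.813 and 3.74 with coverage minimums of 20 and 30, the 40 to 60 min step -0.170 with a minimum of 30 and -0.226 on shared cytosines, and brain minus liver on the L strand -1.91 and -1.35 under these. The cause was not tested.

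Leaving out 1 preparation at a time gave ranges that crossed 0 for brain minus liver on the L strand (-9.55 to 9.73 points), the 40 to 60 min step on the L strand (-0.511 to 3.64), and, on the H strand, native minus synthetic (-0.00691 to 0.0451), ND2 minus ND1 (-0.0158 to 0.0207) and CG minus CH (-0.0613 to 0.000394). With no preparation left out, Fisher's exact test on summed reads called 18 ND2 cytosines for native minus synthetic and 1 for brain minus liver where limma called 0.

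With the replicate number as a block, ESC minus tissue was -4.79 points for L-strand (exact permutation p = 0.444) and -0.167 for H-strand cytosines (exact permutation p = 0.111), and no ND2 cytosine was called; the block changed no call. Without pairing the durations, the steps from 5 to 15 min had an exact permutation p of 0.0286 and an adjusted p of 0.0571. Depth limits the thin stretches most: 89 L-strand cytosines had under 10 reads in all 8 libraries of 60 min.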
